A study of Homo sapiens with 6 samples.

Results

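The tripartite motif (TRIM) genes encode a large family of proteins that share a RING finger, 1 or more B-boxes and a coiled coil, and most act as ubiquitin E3 ligases. Members were the genes whose symbol in the platform annotation is TRIM followed only by digits, with the probe set of highest mean over the 6 arrays standing for each gene. This gave 56 members of 14884 named genes. Another 7 symbols that start with TRIM did not meet the rule (TRIM43B, TRIM49B, TRIM64B, TRIM64C, TRIML1, TRIML2 and the readthrough TRIM6-TRIM34).

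The cells were MDA-MB-231, a human triple-negative breast cancer line whose p53 is mutant. All 3 groups were transfected with an siRNA by the lipid reagent Lipofectamine RNAiMAX: siNC, the control siRNA, siATM against the kinase ATM, or sip53 against p53. Each group had 2 samples, and total RNA of each was hybridised to 1 Affymetrix Human Gene 2.0 ST array. The labels give no siRNA sequence, dose or time. Nothing in them says that the 2 samples of a group were grown separately, and the p-values therefore reflect the spread between these samples alone, which may be technical. The transcripts of ATM and p53 are not analysed here, and the extent of either knockdown was not measured.

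The RING finger of a TRIM protein recruits a ubiquitin-charged E2 enzyme, and the domain at the C-terminal end chooses what is modified. A PRY-SPRY domain marks the largest class, which holds TRIM5, TRIM21, TRIM22 and TRIM25, known for restricting viruses and for tuning the RNA-sensing pathway. Many of these genes are induced by interferon. A PHD finger and a bromodomain mark the chromatin class, in which TRIM28 is a co-repressor that ATM phosphorylates at DNA breaks, TRIM24 is a ligase for p53 and TRIM33 acts on SMAD4.

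Values are log2 array units, and an array cannot tell fewer cells that express a gene from less RNA per cell. Array medians lay between 5.95 and 5.98. The SD of the difference between the 2 arrays of a group over the tested members came to 0.128 in the siNC group, 0.131 in siATM and 0.0986 in sip53, against 0.124, 0.148 and 0.115 over all tested genes. Of 10 markers of mesenchymal-like cells of this type, 5 were named in the annotation and all 5 (VIM, CD44, AXL, S100A4, MSN) had means between 9.44 and 12.7. Of the luminal markers, ESR1 (5.73), PGR (4.79) and FOXA1 (5.31) lay below 5.96, the median probe-set mean, while the other 6 of 9 named, TFF1 (7.01), AGR2 (8.18), GATA3 (8.40), EPCAM (9.02), SPDEF (9.40) and KRT19 (10.6), did not. Of 7 haematopoietic markers only CD14 and LYZ were named, and of 8 endothelial and fibroblast markers 5 were (DCN at 2.82, LUM at 7.77). After siATM, 3 of 6 tested luminal markers were higher and 1 lower. CD14, LYZ, LUM and RGS5 were higher too, and PECAM1 was lower. Of the mesenchymal-like markers S100A4 was higher after siATM (log2 fold change 0.39), and 0 were called after sip53. After sip53 GATA3, AGR2 and LUM were higher and CD14 was lower. Over all tested genes 25.5% were called after siATM and 10.6% after sip53, by the test given below. CD14 was at 8.35 and 8.33 with siNC, 9.57 and 9.49 with siATM, and 7.72 and 7.41 with sip53. The part of these markers in the results was not tested.

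A gene was tested where its mean over the 6 arrays was at or above 5.96, and 43 members passed. The 13 dimmer members were TRIM7, TRIM9, TRIM10, TRIM29, TRIM31, TRIM42, TRIM43, TRIM48, TRIM49, TRIM55, TRIM60, TRIM64 and TRIM69, with means from 3.30 to 5.95. TRIM7 lay just under the limit at 5.95 and TRIM50 just over it at 6.14. The untested members include TRIM69, which is on the list of interferon-inducible members, TRIM29, a RING-less member that takes part in DNA damage responses, TRIM55, which is known from muscle, and TRIM43, TRIM48, TRIM49 and TRIM64, which have near-identical copies in the genome, so that their values are uncertain. TRIM10, TRIM15, TRIM27, TRIM31 and TRIM40 lie in or near the major histocompatibility complex and had 5 to 8 probe sets each. Several probe sets of TRIM10, TRIM15, TRIM27 and TRIM40 hold identical values and are not separate measurements. Differences from siNC ran from −0.30 to −0.23 after siATM over the probe sets of TRIM15, from 0.07 to 0.17 after sip53 over those of TRIM27, and from −0.12 to 0.12 after siATM over those of TRIM40.

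**Figure D1:**
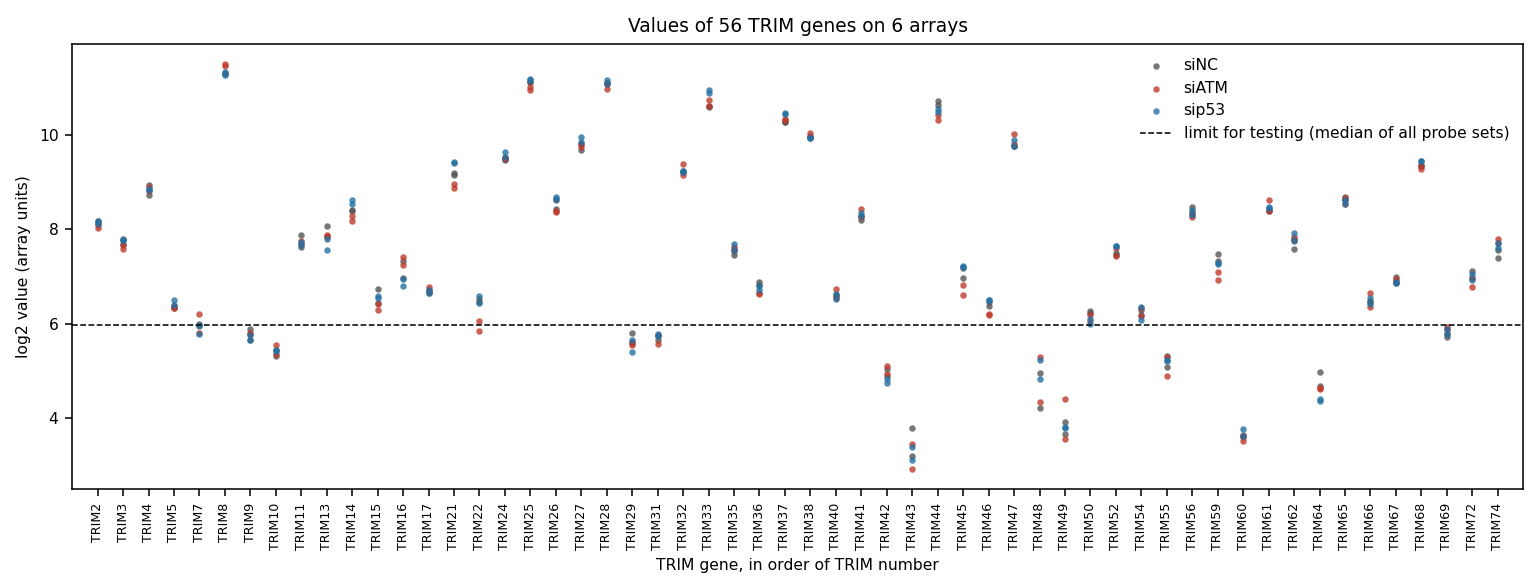
Log2 value (y axis) of each of the 56 TRIM genes (x axis, by TRIM number) on the 6 arrays, 1 point per array, coloured by siRNA, with the limit for testing at 5.96 as a dashed line. For most members the 6 points lie close together; 13 members have a mean below the line, and probe sets of different genes are not comparable in level.

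After siATM, 7 of the 43 tested members were lower than with siNC, 2 were higher and 34 did not pass the test (limma, Benjamini-Hochberg adjusted p below 0.05 over 10640 genes). The members that fell were TRIM22, TRIM59, TRIM45, TRIM44, TRIM21, TRIM46 and TRIM36, and those that rose were TRIM74 and TRIM8. Over all tested genes 25.5% were called in this comparison, 12.5% higher and 13% lower, against 9 of 43 members (20.9%). The median log2 fold change was −0.004 over the members and −0.0006 over all genes. With any 1 of the 6 arrays left out, the count of members fell to 3 or 4. No member reached 1.5-fold, while 3.24% of all tested genes were called with a change of at least 1.5-fold.

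After sip53, 2 of the 43 members were higher, TRIM33 and TRIM21, and 0 were lower, against 5.47% higher and 5.11% lower over all genes (10.6% in all). At an unadjusted p below 0.05 limma gave 5 members higher and 2 lower. The members' median was 0.02 and that of all genes 0.01. Again no member reached 1.5-fold, while 1.36% of all tested genes were called at that size. Leaving out any 1 of the siNC and sip53 arrays took the count of members to 0.

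The direct comparison of siATM with sip53, which tests whether the effects of the 2 siRNAs differ, gave the most members: 9 were lower with siATM and 1, TRIM16, was higher, of 43. Over all tested genes 30.3% were called, 14% higher and 16.3% lower, against 23.3% of the members. The 9 were TRIM22, TRIM21, TRIM45, TRIM14, TRIM46, TRIM26, TRIM59, TRIM33 and TRIM25. The members' median was −0.08 and that of all genes −0.01. No member reached 1.5-fold, while 4.74% of all tested genes were called at that size. The count of members was 5 without sip53 replicate 1 or siATM replicate 2 and 4 without sip53 replicate 2. In all, 14 members were called in at least 1 comparison and 29 in none.

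**Figure D2:**
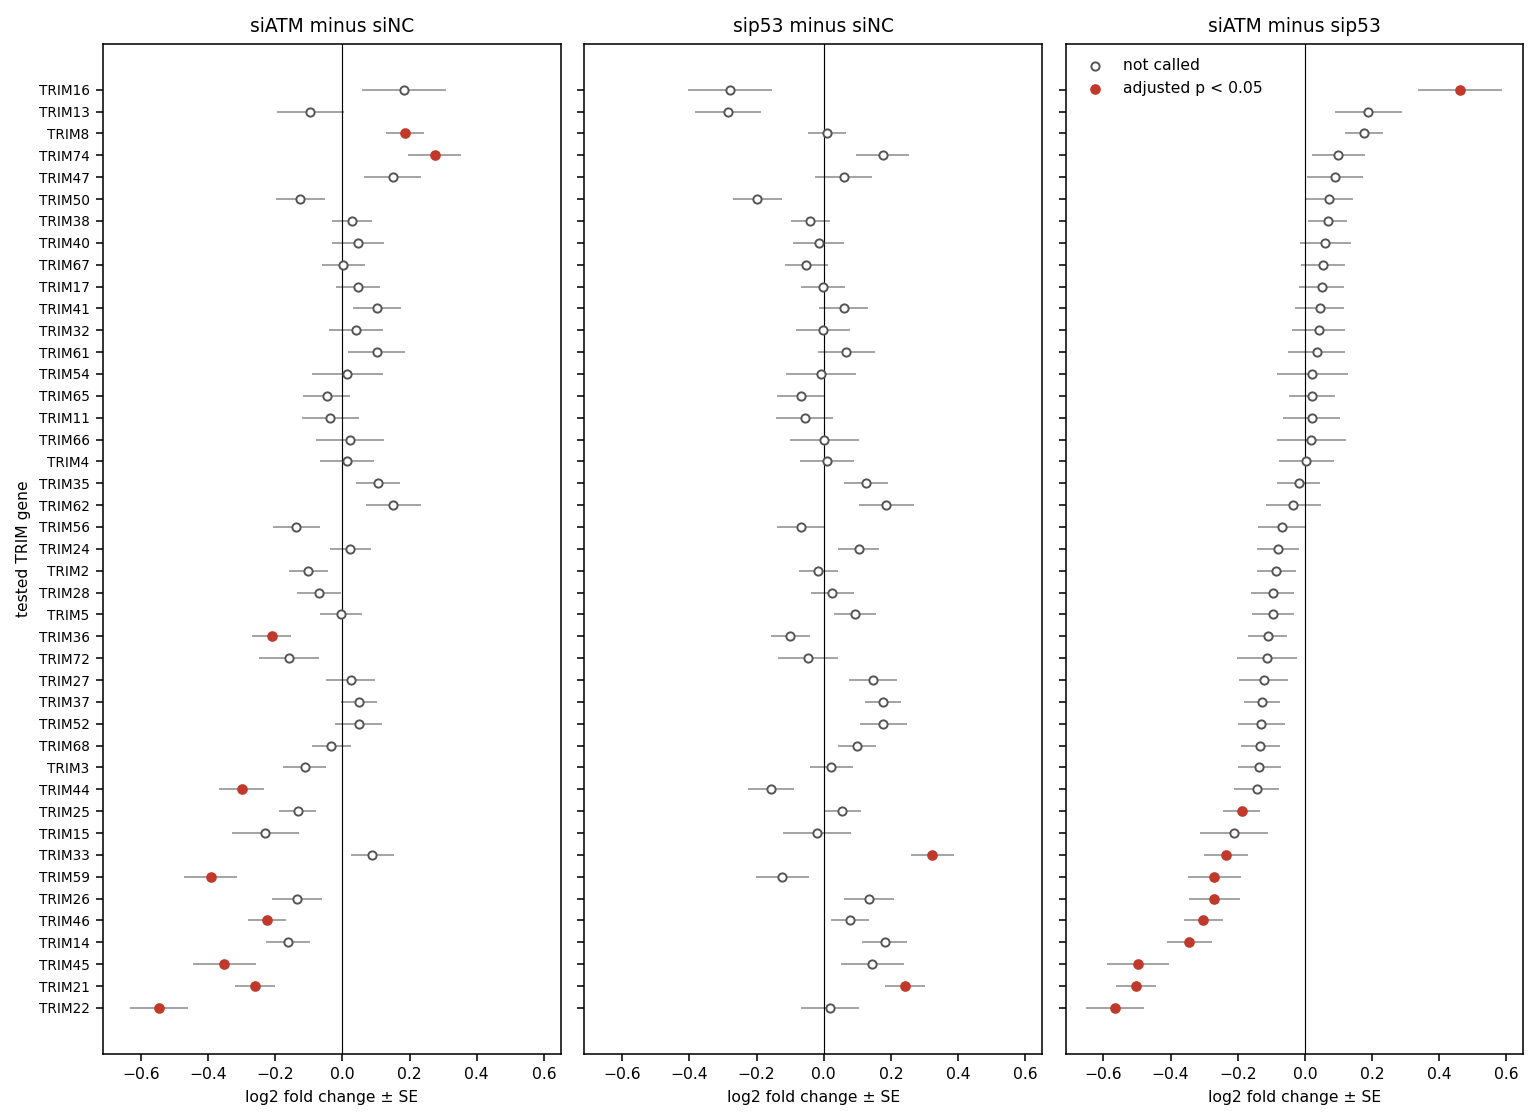
Log2 fold change ± moderated SE (x axis) of the 43 tested TRIM genes (y axis, ordered by the difference of siATM from sip53) in the 3 comparisons, filled points being called at adjusted p below 0.05. After siATM 7 members are called lower and 2 higher, after sip53 2 higher, and between the siRNAs 9 lower and 1 higher with siATM.

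The PRY-SPRY class had 27 named and 19 tested members, of which 2 fell after siATM (10.5%, beside 25.5% called over all tested genes) and 1 rose after sip53 (5.26%, beside 10.6%). TRIM22, an interferon-induced restriction factor and a reported p53 target, had the largest fall of the family. Its log2 values were 6.47 and 6.51 with siNC, 5.85 and 6.05 with siATM, and 6.59 and 6.44 with sip53. Both siATM arrays lay below the other 4, and the siNC and sip53 arrays overlapped. TRIM22 fell 1.46-fold after siATM (log2 fold change −0.55, SE 0.09, adjusted p = 0.00440), while sip53 gave 0.02 (95% interval −0.18 to 0.22). With siATM it was 1.48-fold lower than with sip53 (−0.57, SE 0.09, adjusted p = 0.00287). The call after siATM and that between the siRNAs held whichever array was left out, but the gene is dim, its siATM mean of 5.95 lies at the limit for testing, and with the limit at the 70th percentile it was not tested.

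TRIM21, a cytosolic antibody receptor and ubiquitin ligase that is also the Ro52 autoantigen, was the only member called against siNC with both siRNAs, in opposite directions. Its values were 9.16 and 9.20 with siNC, 8.97 and 8.88 with siATM, and 9.41 and 9.43 with sip53. The 3 groups did not overlap. TRIM21 fell 1.20-fold after siATM (log2 fold change −0.26, SE 0.06, adjusted p = 0.0182) and rose 1.18-fold after sip53 (0.24, SE 0.06, adjusted p = 0.0450). These comparisons share the siNC arrays. Between the siRNAs the difference was 1.42-fold, lower with siATM (−0.50, SE 0.06, adjusted p = 0.00107), and it held whichever array was left out. The call after siATM was lost without siNC replicate 1, siNC replicate 2 or siATM replicate 2 (adjusted p up to 0.0954) and with unnamed probe sets included (0.0514), and that after sip53 without any single array of the siNC or sip53 groups (adjusted p up to 0.207), after centring arrays on the median of tested genes, without the filter and with unnamed probe sets included.

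TRIM25, the ligase that modifies the RNA sensor RIG-I, and TRIM26, a regulator of interferon signalling, differed between the siRNAs but not against siNC. TRIM25 was at 11.12 and 11.13 with siNC, 10.96 and 11.02 with siATM, and 11.18 on both sip53 arrays. It was 1.14-fold lower with siATM than with sip53 (log2 −0.19, SE 0.06, limma adjusted p = 0.0385), a call lost whichever array was left out. Of 9 other alternatives 4 kept that call, and quantile normalization, centring arrays on the median of tested genes and dropping the filter were among those that lost it. TRIM26 was at 8.62 and 8.42 with siNC, 8.40 and 8.38 with siATM, and 8.63 and 8.68 with sip53, or 1.21-fold lower with siATM than with sip53 (−0.27, SE 0.08, adjusted p = 0.0328). That call was lost without any 1 of the siATM and sip53 arrays (up to 0.148). For both genes the siATM arrays lay below the arrays of the other groups.

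In the direct comparison 4 of the 19 tested members of the PRY-SPRY class were lower with siATM (21.1%, beside 30.3% over all tested genes). The RING-less members TRIM14 and TRIM16 were counted outside the class. Its other tested members did not pass. TRIM5, the retroviral restriction factor, had log2 fold changes of −0.004 (95% interval −0.15 to 0.14) after siATM and 0.09 (−0.05 to 0.24) after sip53. TRIM38, a regulator of innate sensing, had 0.03 (−0.11 to 0.17) and −0.04 (−0.18 to 0.10). TRIM15 had −0.23 (−0.47 to 0.01) after siATM and was called only without siNC replicate 1 (adjusted p = 0.0326; 0.0326 to 0.575 over all alternatives). TRIM62 had 0.15 and 0.19, and TRIM27 had 0.02 and 0.15.

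Among the 10 listed interferon-inducible members, 8 were tested (TRIM5, TRIM14, TRIM21, TRIM22, TRIM25, TRIM26, TRIM38 and TRIM56), 1 was dim (TRIM69) and 1, TRIM34, was unnamed here. After siATM 2 were lower and 0 higher (25%, beside 25.5% called over all tested genes), with 7 of 8 fold changes negative and a median of −0.14. At an unadjusted p below 0.05 limma gave 4 lower and 0 higher. After sip53 1 was higher and 0 lower (12.5%, beside 10.6%), with 6 of 8 positive and a median of 0.07, and at an unadjusted p below 0.05 limma gave 2 higher and 0 lower. With siATM against sip53, 5 of the 8 were lower and 0 higher (62.5%, beside 30.3% called over all tested genes), with a median of −0.23. This list, like the others, was chosen with earlier results of these data known. TRIM14 is a RING-less adaptor of the mitochondrial antiviral complex. Its values were 8.39 and 8.41 with siNC, 8.29 and 8.18 with siATM, and 8.54 and 8.62 with sip53. The 3 groups did not overlap, but neither difference from siNC passed (−0.16, adjusted p = 0.114, and 0.18, adjusted p = 0.133). Between the siRNAs TRIM14 was 1.27-fold lower with siATM (−0.34, SE 0.07, adjusted p = 0.00747), a call lost without sip53 replicate 2 (adjusted p = 0.0587; 0.00158 to 0.0587 over all alternatives). TRIM56 had −0.14 after siATM and −0.07 after sip53, and neither passed.

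Interferon acts on many promoters through the interferon-stimulated response element (ISRE), so the letters GAAA, any 2 bases and GAAA were searched on both strands in the window from 250 bases before to 50 bases after each start site in RefSeq (GRCh38.p14). A window was listed for 42 of the 56 members, and TRIM8, TRIM22 and TRIM45 had no entry. The letters occurred in 1 window of each of 8 members (TRIM2, TRIM5, TRIM14, TRIM16, TRIM21, TRIM26, TRIM44 and TRIM69), or 8 of 58 member windows (13.8%), against 3.57% of all 35116 windows of that length. Of the 10 members that differed between the siRNAs, 8 had a window and 4 held the letters, namely TRIM14, TRIM16, TRIM21 and TRIM26. TRIM16 was higher with siATM than with sip53 and is not on the interferon-inducible list. TRIM69 is on that list and holds the letters, but it was not tested and its window is not printed. The 4 windows below belong to the tested interferon-inducible members with the letters: TRIM14, TRIM21 and TRIM26, which were lower with siATM than with sip53, and TRIM5, for which no difference passed. Each is printed 5′ to 3′ on the strand of the gene, with matches in either orientation in capitals.
TRIM21 (chr11:4393653-4393952, minus strand): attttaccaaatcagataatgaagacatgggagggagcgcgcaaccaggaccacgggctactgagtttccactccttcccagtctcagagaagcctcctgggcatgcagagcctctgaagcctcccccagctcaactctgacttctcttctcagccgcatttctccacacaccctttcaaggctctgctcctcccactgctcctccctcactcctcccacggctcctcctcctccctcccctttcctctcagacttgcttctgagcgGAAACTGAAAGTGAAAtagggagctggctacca
TRIM14 (chr9:98119173-98119472, minus strand): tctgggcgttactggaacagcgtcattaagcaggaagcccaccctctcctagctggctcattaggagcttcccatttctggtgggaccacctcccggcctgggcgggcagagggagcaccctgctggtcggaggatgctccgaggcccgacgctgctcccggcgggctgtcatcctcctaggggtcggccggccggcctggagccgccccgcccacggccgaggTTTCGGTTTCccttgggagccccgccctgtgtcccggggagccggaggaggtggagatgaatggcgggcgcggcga
TRIM26 (chr6:30213357-30213656, minus strand): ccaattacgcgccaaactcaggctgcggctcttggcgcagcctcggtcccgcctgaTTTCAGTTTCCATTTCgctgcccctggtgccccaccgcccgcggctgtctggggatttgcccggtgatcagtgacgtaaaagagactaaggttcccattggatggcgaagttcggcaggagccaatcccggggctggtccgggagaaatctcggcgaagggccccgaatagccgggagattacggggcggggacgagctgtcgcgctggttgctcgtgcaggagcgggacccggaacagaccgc
TRIM5 (chr11:5685025-5685324, minus strand): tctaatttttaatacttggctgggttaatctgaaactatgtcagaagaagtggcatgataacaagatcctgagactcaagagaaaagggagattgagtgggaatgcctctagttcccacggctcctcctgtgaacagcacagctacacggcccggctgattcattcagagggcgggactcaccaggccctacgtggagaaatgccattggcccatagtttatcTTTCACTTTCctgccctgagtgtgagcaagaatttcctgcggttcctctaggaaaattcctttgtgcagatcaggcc
In TRIM21 and in TRIM26 a pair of overlapping matches forms 1 run of capitals, which lies after the start site in TRIM21 and before it in TRIM26. In TRIM14 and TRIM5 a single match starts 26 and 27 bases before the start site. A match describes letters in a window and is not a measured binding site.

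In all, 6 motifs were searched in the same windows. TTCNNNGAA, the type bound by STAT proteins (GAS), occurred in 20.7% of member windows and 7.66% of all windows. TTTCCCGC or TTTGGCGC, of the E2F type, occurred in 6.9% and 2.27%. TTTGAA, of the cell cycle homology region type, occurred in 10.3% and 15.2%, GGGA followed after any 4 bases by CC, of the NF-kB type, in 20.7% and 25.6%, and the p53 half-site in 6.9% and 6.63%. TRIM21 was the only member that differed between the siRNAs with a p53 half-site in its window, and TRIM44 and TRIM26 were among the 4 members with the E2F type. Of the 8 differing members with a window, 3 held the NF-kB type (TRIM14, TRIM26 and TRIM46) and 2 the GAS type (TRIM16 and TRIM46). The E2F type was in 1 (TRIM26) and the cell cycle homology region type in 1 (TRIM33). Members with several start sites have several windows, so member windows are not independent.

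**Figure D3:**
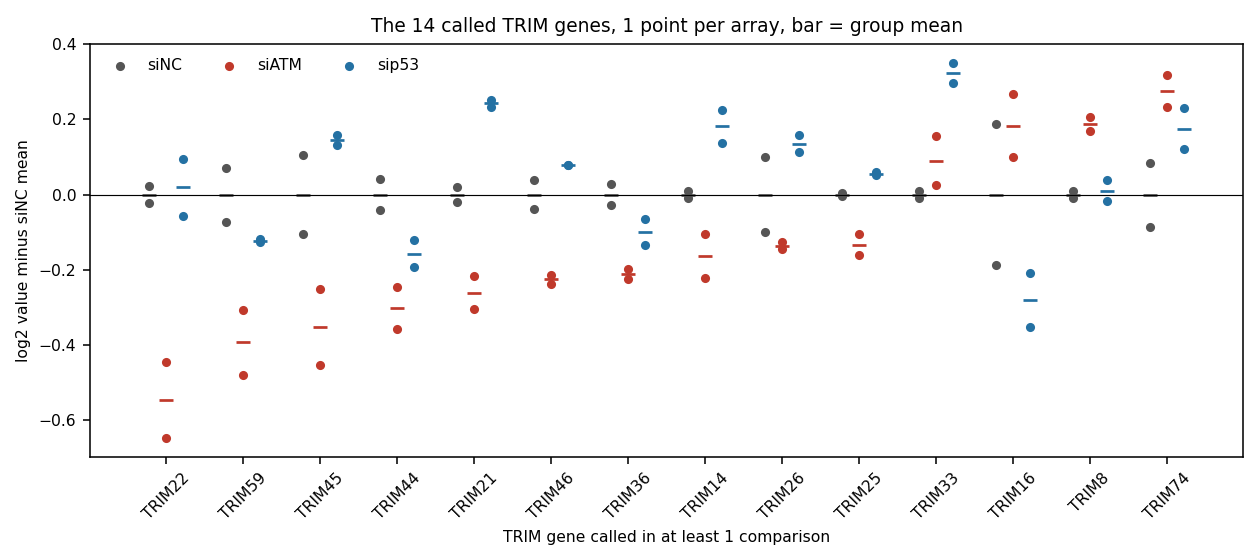
Log2 value minus the siNC mean (y axis) of the 14 TRIM genes called in at least 1 comparison (x axis, ordered by the change after siATM), 1 point per array and a bar for each group mean. The siATM arrays of TRIM22 lie furthest below siNC. For TRIM14, TRIM21, TRIM25, TRIM26, TRIM45 and TRIM46 the siATM and sip53 arrays lie on opposite sides of both siNC arrays.

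Outside the PRY-SPRY class, TRIM59 fell after siATM. It encodes a membrane-anchored ligase that is high in many tumours and is reported to act on p53. Its values were 7.47 and 7.33 with siNC, 7.10 and 6.92 with siATM, and 7.28 on both sip53 arrays. TRIM59 fell 1.31-fold after siATM (log2 fold change −0.39, SE 0.08, adjusted p = 0.0116) and was 1.21-fold lower with siATM than with sip53 (−0.27, SE 0.08, adjusted p = 0.0391). The first call was lost without siNC replicate 1 (adjusted p = 0.0736; 0.00293 to 0.0736 over all alternatives) and the second without siATM replicate 2 or either sip53 array (up to 0.151). TRIM13, the other transmembrane member, which resides in the endoplasmic reticulum and is known to act on MDM2, had −0.10 after siATM and −0.28 after sip53 (95% interval −0.52 to −0.05, adjusted p = 0.119).

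TRIM45, the filamin-domain member, a repressor of kinase signalling, was at 6.96 and 7.17 with siNC, 6.61 and 6.81 with siATM, and 7.22 and 7.20 with sip53. The siATM arrays lay below all others. TRIM45 fell 1.28-fold after siATM (log2 fold change −0.35, SE 0.09, adjusted p = 0.0309). That call was lost without siATM replicate 1 or siNC replicate 2, without the filter, with unnamed probe sets included and with only the arrays compared. Leaving out either sip53 array gave the same fit as the last of these. Between the siRNAs TRIM45 was 1.41-fold lower with siATM (−0.50, SE 0.09, adjusted p = 0.00687), and this call held whichever array was left out.

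TRIM44, a RING-less member with a ubiquitin-protease-type zinc finger, was at 10.72 and 10.64 with siNC, 10.32 and 10.43 with siATM, and 10.48 and 10.56 with sip53. The groups did not overlap. TRIM44 fell 1.23-fold after siATM (−0.30, SE 0.07, adjusted p = 0.0170), while sip53 gave −0.16 (95% interval −0.31 to 0.0006, adjusted p = 0.190) and the siRNAs did not differ by the test (adjusted p = 0.153). The call was lost without siNC replicate 1 or siATM replicate 1 (up to 0.0990).

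The class with a COS box, fibronectin domain and SPRY domain binds microtubules. Of its 3 tested members TRIM46, an organiser of axonal microtubules, and TRIM36 fell after siATM, and TRIM67 (0.002 after siATM and −0.05 after sip53) did not pass. The calls made up 66.7% of only 3 tested members, beside 25.5% called over all tested genes. TRIM46 was at 6.45 and 6.38 with siNC, 6.18 and 6.20 with siATM, and 6.49 on both sip53 arrays. It fell 1.17-fold after siATM (−0.23, SE 0.06, adjusted p = 0.0266) and was 1.23-fold lower than with sip53 (−0.30, SE 0.06, adjusted p = 0.00710). The difference between the siRNAs held whichever array was left out. The call against siNC was lost without any 1 of the 6 and kept in 4 of 8 other alternatives. TRIM36 was at 6.88 and 6.83 with siNC, 6.66 and 6.63 with siATM, and 6.79 and 6.72 with sip53, a 1.16-fold fall after siATM (limma adjusted p = 0.0369). That call was lost without any 1 of the 6 arrays and kept in 4 of 8 other alternatives.

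TRIM74 and TRIM8, both of the class without a known C-terminal domain, rose after siATM. They were 33.3% of the 6 tested members of that class, beside 25.5% called over all tested genes. TRIM8, a ligase reported to stabilise p53, was at 11.31 and 11.29 with siNC, 11.47 and 11.51 with siATM, and 11.28 and 11.34 with sip53. It rose 1.14-fold after siATM (0.19, SE 0.06, limma adjusted p = 0.0487), a call lost whichever array was left out and kept in 3 of 9 other alternatives. TRIM74 was at 7.39 and 7.56 with siNC, 7.79 and 7.71 with siATM, and 7.60 and 7.71 with sip53. It rose 1.21-fold (0.27, SE 0.08, limma adjusted p = 0.0405), a call lost without any 1 array except siNC replicate 2 and kept in 5 of 9 other alternatives. TRIM74 has near-identical copies, so its value is uncertain. After quantile normalization both rises lost their call and the 7 members called lower remained, which made the split 0 higher and 7 lower.

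In the chromatin class, TRIM33 rose after sip53 and TRIM24, TRIM28 and TRIM66 did not pass in any comparison. The share called after sip53 was 25% of 4 tested members, beside 10.6% over all tested genes. TRIM33 was at 10.59 and 10.61 with siNC, 10.75 and 10.62 with siATM, and 10.95 and 10.90 with sip53. Both sip53 arrays lay above the other 4. It rose 1.25-fold after sip53 (0.32, SE 0.07, adjusted p = 0.0239) and was 1.18-fold lower with siATM than with sip53 (−0.23, SE 0.07, adjusted p = 0.0319). The rise was lost without any single array of the siNC or sip53 groups (adjusted p up to 0.140), without the filter and with unnamed probe sets included, and the difference without any 1 array except siATM replicate 1 (up to 0.162). TRIM28 was at 11.10 and 11.11 with siNC, 10.98 and 11.09 with siATM, and 11.09 and 11.18 with sip53, with fold changes of −0.07 (95% interval −0.22 to 0.08) and 0.03 (−0.13 to 0.18). TRIM24 had 0.02 (−0.12 to 0.17) after siATM and 0.10 (−0.04 to 0.25) after sip53, and TRIM66 had 0.02 (−0.22 to 0.26) and 0.002 (−0.24 to 0.24).

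TRIM16, a RING-less member that takes part in autophagy of damaged membranes, was the member higher with siATM than with sip53. Its values were 7.34 and 6.96 with siNC, 7.42 and 7.25 with siATM, and 6.80 and 6.94 with sip53. The siNC arrays overlapped those of siATM and lay just above those of sip53. The difference was 1.38-fold (0.46, SE 0.13, adjusted p = 0.0296) and was lost without any 1 of the siATM and sip53 arrays (up to 0.143).

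By the list of members with a known link to p53 or ATM, 8 of 10 were tested (TRIM8, TRIM13, TRIM22, TRIM24, TRIM28, TRIM32, TRIM33 and TRIM59), TRIM29 was dim and TRIM71 was unnamed here. After siATM 2 were lower and 1 higher (37.5%, beside 25.5% over all tested genes), with a median of −0.02. After sip53 1 was higher and 0 lower (12.5%, beside 10.6%), with a median of 0.01. For sip53 limma gave 1 higher and 1 lower at an unadjusted p below 0.05. TRIM32, a ligase reported to act on p53, had 0.04 after siATM (95% interval −0.15 to 0.23) and −0.001 (−0.19 to 0.19) after sip53. Among members on neither the interferon-inducible list nor this one, TRIM37, the MATH-domain ligase of centrosome control, had 10.28 ± 0.002 with siNC, 10.33 ± 0.01 with siATM and 10.45 ± 0.01 with sip53 (SD, n = 2 each). Its difference after sip53 was 0.18 and did not pass (adjusted p = 0.0843), although it was called with the limit at the 70th percentile and with a variance trend (0.0192 to 0.302 over all alternatives). The NHL-domain members TRIM2 and TRIM3 had −0.10 and −0.11 after siATM, and neither passed.

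Over the uncalled members, fold changes ran from −0.23 (TRIM15) to 0.18 (TRIM16) after siATM, from −0.28 (TRIM13) to 0.19 (TRIM62) after sip53, and from −0.21 (TRIM15) to 0.19 (TRIM13) between the siRNAs. Their SEs lay between 0.05 and 0.13 on the log2 scale, so small changes could not be told from 0.

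Neighbouring members did not all carry the same values. By RefSeq gene order 3 coding genes lie between TRIM22 and TRIM5 on chromosome 11, and after siATM the first had −0.55 and the second −0.004. On the same chromosome 5 coding genes lie between TRIM21 and TRIM68, and TRIM68 had −0.03 after siATM and 0.10 after sip53. TRIM15 and TRIM26 are adjacent on chromosome 6, with −0.23 and −0.14 after siATM. The difference between neighbours was not tested.

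The genes around the family moved as follows. Of 36 interferon signalling and interferon-stimulated genes, 24 were tested, and 13 were lower and 1, BST2, higher after siATM, with a median of −0.38. That was 58.3% of the tested list, beside 25.5% called over all tested genes. DDX60 had −0.72, SAMD9L −0.69, HERC6 −0.66 and HERC5 −0.58, and the transcription factor gene IRF1 had −0.38. After sip53 1 was higher, IFIT1 (0.27), and 1 lower, the kinase gene JAK1 (−0.27), with a median of 0.03 (8.33% called, beside 10.6%). With siATM against sip53, 13 were lower and 2 higher (62.5%, beside 30.3%). Of 18 tested genes of the RNA and DNA sensing pathway, 2 were higher after siATM, STING1 (0.27) and IRF3 (0.18), and 1 lower (16.7%, beside 25.5%). After sip53 1 was higher and 0 lower (5.56%, beside 10.6%), with 3 higher and 1 lower at an unadjusted p below 0.05 in limma. The gene called with both siRNAs was TLR3, the endosomal receptor of double-stranded RNA. Its values were 8.52 and 8.57 with siNC, 8.13 and 8.02 with siATM, and 9.13 and 9.11 with sip53. TLR3 had −0.47 after siATM and 0.57 after sip53. RIGI, the sensor that TRIM25 modifies, had −0.09 and −0.01, and the adaptor gene MAVS −0.15 and −0.08, and none of these passed.

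Of 15 E2 enzymes and modifiers that TRIM ligases use, 10 were tested. After siATM UBE2V2, a partner of UBE2N in chain building, and UBE2L6, the E2 of ISG15, fell (−0.39 and −0.37), and UBE2E3 rose (0.32). UBE2E3 rose after sip53 too (0.26), the only call there. The calls made up 30% of this list after siATM and 10% after sip53, beside 25.5% and 10.6% over all tested genes. UBE2N had −0.08 and −0.03, and ISG15 had −0.06 and −0.02. Of 17 chromatin partners of TRIM24, TRIM28 and TRIM33, 12 were tested, and 4 fell and 1 rose after siATM (41.7%, beside 25.5%). CBX1 (−0.65) and CBX5 (−0.51) encode heterochromatin protein 1, which TRIM28 binds, SMAD2 (−0.40) and SMAD4 (−0.31) encode signal mediators of TGF-beta, and HDAC1 (0.29) is a deacetylase. After sip53, SMAD4 fell by 0.60, HDAC2 by 0.30 and CBX5 by 0.27 on the log2 scale and 0 rose (25%, beside 10.6%). Limma gave 4 lower and 0 higher at an unadjusted p below 0.05. SMAD4, whose protein TRIM33 modifies, was at 10.62 and 10.55 with siNC and 10.03 and 9.96 with sip53.

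Of 22 relatives of the family with other symbols 9 were tested. MID2, also known as TRIM1, rose after siATM (0.28) and SPRYD4 fell (−0.31). TRIML2 was lower after sip53 (−0.41). The calls made up 22.2% of the tested relatives after siATM and 11.1% after sip53, beside 25.5% and 10.6% over all tested genes. PML, the organiser of nuclear bodies also known as TRIM19, had 0.18 and 0.15, and MID1, the microtubule-binding ligase also known as TRIM18, had 0.17 and 0.19, and none of these passed. Proliferation markers moved with the siATM group: all 19 tested of 20 listed were lower after siATM (100%, beside 25.5%), with a median of −0.48. After sip53 1 was higher and 1 lower (10.5%, beside 10.6%), with a median of 0.01. The mean of the listed markers per array lay at 10.76 and 10.75 with siNC, 10.25 and 10.20 with siATM, and 10.77 and 10.77 with sip53. The part of this shift in the changes of the TRIM genes was not tested.

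**Figure D4:**
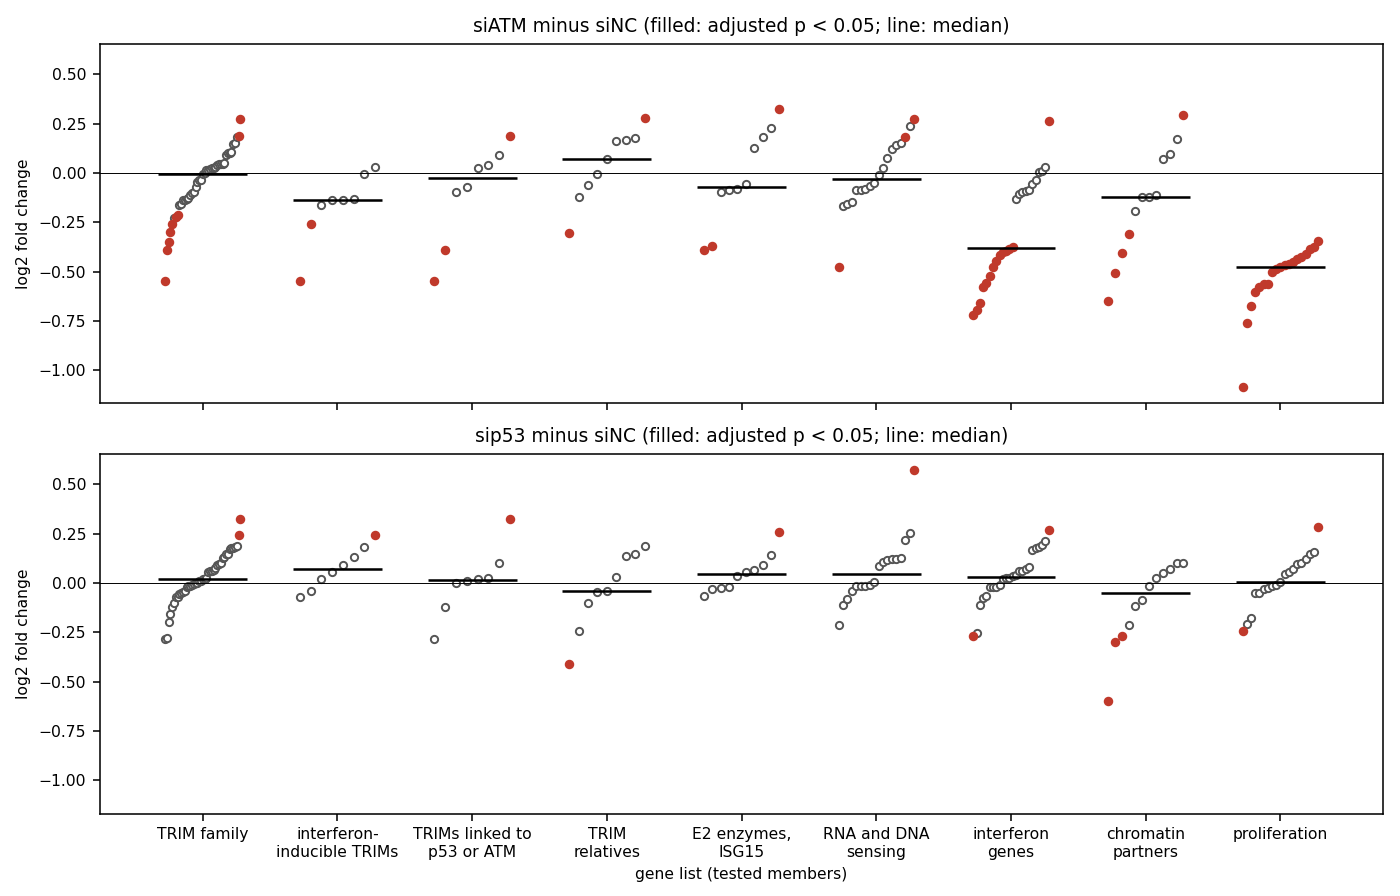
Log2 fold change (y axis) of the tested members of 9 gene lists (x axis) after siATM (top) and sip53 (bottom), 1 point per gene, filled where adjusted p was below 0.05, with the list median as a line. After siATM the interferon genes (median −0.38) and proliferation markers (median −0.48) lie mostly below 0, while the TRIM family is centred near 0.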

How the data were processed

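Per the labels, biotin-labelled cDNA from total RNA was hybridised to 1 array per sample. The authors deposited 1 log2 value per probe set and array; the log2 scale was read from the values (1.33 to 14.2, no missing value). Background correction, summary, normalization and annotation build are not given in the sources used here. Of 53617 probe sets, 16098 had 1 symbol in the supplied platform annotation, 0 had several and 37519 had none. They name 14884 genes, each given its probe set of highest mean.

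Genes with a mean of at least 5.96, the median of all probe-set means, were tested (10640). Group means of all 6 arrays were fitted with limma (version 3.58.1, R 4.3.3; 3 residual and 7.29 total degrees of freedom after eBayes). P-values are two-sided and Benjamini-Hochberg adjusted within a comparison over all tested genes, with a threshold of 0.05. Intervals are 95% and use the moderated SE. The number of arrays limits the precision. The procedure was tested on simulated data. Alternatives changed the filter, probe-set choice, scaling, moderation, features, arrays and block.

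Members and lists were chosen with earlier results of these data known. Called members were named. The 5 highest and 5 lowest called members of each comparison, and those called against siNC with both siRNAs, have the value on every array, as do TRIM28, CD14, TLR3 and, in part, SMAD4, chosen after their values were seen. Genes outside the family come from fixed lists, at most 4 called members of the largest change each, and further ones (BST2, IRF1, IFIT1, JAK1, HDAC1 and uncalled partners) were picked after their values were seen. Promoter windows are from RefSeq. No coordinates of probe sets are given.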

Additional observations from a re-analysis of the deposited data

Results flagged for a closer look

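The effects of siATM and sip53 on 10 members differed by the direct test between the siRNAs (limma, adjusted p below 0.05). As log2 values of siATM minus sip53 they were −0.57 for TRIM22, −0.50 for TRIM21, −0.50 for TRIM45, −0.34 for TRIM14, −0.30 for TRIM46, −0.27 for TRIM26, −0.27 for TRIM59, −0.23 for TRIM33, −0.19 for TRIM25 and 0.46 for TRIM16. With siATM both arrays were lower than both sip53 arrays for the first 9, and both were higher for TRIM16. Such separation was also seen in members that were not called, TRIM3, TRIM24 and TRIM38 among them. Its share over all tested genes was not counted.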

How the results depend on the processing

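No fold change of a member that was called, in the main analysis or under an alternative, reversed its sign. Under the alternatives 1777 fold changes of members kept their side of the threshold, 107 lost a call and 9 gained one; the cause was not tested. The calls of TRIM22 after siATM, and of TRIM21, TRIM22, TRIM45 and TRIM46 between the siRNAs, held under every alternative in which the gene was tested. After siATM the count of called members was 9, and it was 4 without the filter on dim genes, 5 with the limit at the 70th percentile (29 members tested), 2 with unnamed probe sets included (26809 features tested), 4 with only the arrays compared, and 3 to 4 with 1 array left out. After sip53 it was 2, and 0 without the filter or with unnamed probe sets (limma; 5 higher and 2 lower at an unadjusted p below 0.05 with the filter), 1 after centring arrays on the median of tested genes, and 0 to 2 with 1 array left out. Between the siRNAs it was 10, and 5 without the filter or with unnamed probe sets, and 4 to 8 with 1 array left out. Over all genes the counts with 1 array left out were 1437 to 2226 after siATM (2708 with all arrays), 272 to 1242 after sip53 (1126), and 1842 to 2852 between the siRNAs (3219). They moved by over 1.5 times without siNC replicate 1 (1437) or 2 (1489) for siATM, without any 1 siNC or sip53 array for sip53 (272 to 329), and without sip53 replicate 1 (1842) or 2 (1884) between the siRNAs. For sip53 the count was 481 without the filter and 1742 with robust moderation and a variance trend, and centring made the split of 582 higher and 544 lower 410 and 668. Without the filter the share called over all genes was 12.4% after siATM, 3.23% after sip53 and 15.9% between the siRNAs. With unnamed probe sets it was 12.3%, 2.88% and 15.6% of all features. After siATM it was 39.8% with the limit at the 70th percentile and 20.9% with only the arrays compared. Centring gave 10.1% after sip53. Pairing of the arrays by replicate number was not evident: the differences between replicates 1 and 2 correlated between groups at 0.04, 0.03 and 0.12. Whether arrays of the same number shared a batch was not tested. With the replicate block the counts of called members were 8 after siATM, without TRIM8, 1 after sip53, without TRIM21, and 10 between the siRNAs. A lone array in a group was assumed to vary like the other groups. Leaving out an array of the group outside a comparison gave the same fit as only the arrays compared, so these are not separate alternatives. Without scanner files no detection call, scan date or batch was tested.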
